A study of Mus musculus with 16 samples.

Results

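Hyaluronan (HA) is a long sugar polymer of the extracellular matrix that is made at the cell membrane by hyaluronan synthases, of which Has2 is one. The data concern 8 of the 16 RNA sequencing libraries of a study of inguinal white adipose tissue (iWAT), the subcutaneous fat of the mouse groin: 4 libraries of Apn-Has2 mice (Has2_TG) and 4 of their littermate controls (Has2_WT). All were from male mice that began the experiment at 8 to 10 weeks of age, and all received 5 days of chow containing 200 mg/kg doxycycline. Both groups carried Apn-rtTA, a doxycycline-activated transcription factor made under the adiponectin promoter and therefore in adipocytes, and Has2_TG also carried TRE-Has2, a mouse Has2 cDNA that rtTA switches on. The controls thus shared rtTA and doxycycline and lacked only the transgene. The transgene is a mouse sequence, so its reads and those of the endogenous gene cannot be told apart. Of the 54532 genes in the deposited table, 12606 averaged 50 reads or more across the 8 libraries and were tested, and the comparison covers them all. Levels are FPKM, fragments scaled by gene length and library size, and differences are on the log2(FPKM + 0.1) scale. In this text, 4 values given for a group follow the library numbers 1 to 4.

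Has2 FPKM was 0.806, 0.474, 0.417 and 0.643 in Has2_WT and 2.28, 1.86, 3.24 and 2.97 in Has2_TG, so each transgenic library was above each control. The adipocyte markers were abundant in every library, and none of the 7 differed at an unadjusted p under 0.05 by limma. Their summed FPKM was 3929.7 to 7997 in Has2_WT and 5262 to 7594 in Has2_TG, and Adipoq, Plin1, Lep, Cidec, Lipe, Retn and Fabp4 had reads in all 8. The libraries differed in other cell types. B cell markers summed to 334 FPKM in Has2_WT1 and 269.9 in Has2_WT2, but to 2.45 in Has2_WT3 and 3.69 in Has2_WT4 and to 1.87 to 3.22 in Has2_TG. Has2_WT3 and Has2_WT4 are called the lymphocyte-poor controls here. Skeletal muscle markers summed to 383 and 825 FPKM in Has2_TG1 and Has2_TG2, to 7.92 and 10.1 in Has2_TG3 and Has2_TG4, and to 24.4 to 111 in Has2_WT. Depth was 16350133 to 26751729 reads on genes per library (median 19462712). Genes with only 1 to 3 reads numbered 3021 to 3721 in Has2_WT2, Has2_WT3 and Has2_TG2 but 403 to 484 in the other 5 libraries, so values of 0 do not carry the same weight in each. The labels number the libraries without naming animals, and p-values measure the spread between these libraries.

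A gene was called at an unadjusted p under 0.05 by limma. That called 788 genes upregulated, 6.25% of those tested, and 473 downregulated, 3.75%. After Benjamini-Hochberg adjustment 13 genes, 0.103%, were upregulated and 0 downregulated, so nearly all calls on the named groups rest on the unadjusted threshold. The 4 Has2_TG libraries were all above the 4 Has2_WT libraries for 514 genes (4.08%) and all below them for 266 (2.11%). The median log2 difference over all genes was -0.03.

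Genes of fatty acid synthesis were lower in Has2_TG: of 44 tested targets of sterol regulatory element-binding proteins (SREBPs) 14 were downregulated and 1 upregulated, and 9 of the 14 belong to the list of fatty acid and glycerolipid synthesis. SREBPs are membrane-bound transcription factors that move to the nucleus when processed. SREBP-1c, from Srebf1, mainly drives fatty acid synthesis and responds to insulin, and SREBP-2, from Srebf2, mainly drives cholesterol synthesis and uptake when sterols are low. In adipocytes the fatty acid branch, with the carbohydrate-responsive factor ChREBP from Mlxipl, supplies fatty acids made from glucose carbon. Promoter windows of 250 bases before and 50 after a start site, from RefSeq on GRCm38.p6, were found for 16 of the 19 fatty acid targets (20 windows) and 19 of the 27 cholesterol targets (23 windows). They were searched on both strands for TCACNCCAC, a sterol regulatory element, for CCAAT, the box bound by NF-Y, a usual partner of SREBPs, and for CACGTG, an E-box. Of all 32851 windows in the RefSeq table, 1.24% held the first, 37.4% the second and 7.15% the third. Among the fatty acid targets the sterol regulatory element was in 0 windows, CCAAT in 11 and CACGTG in 1. Among the cholesterol targets these were 1, 18 and 5 windows. A match describes letters and not binding. The 250 bases before the start are given for 3 members chosen to show the CCAAT boxes and the only TCACNCCAC match, which is that of Hmgcs1. Fasn (chr11:120824548-120824797, minus strand) and Mvd (chr8:122443423-122443672, minus strand) were downregulated, and Hmgcs1 (chr13:119690101-119690350, plus strand) was not called. Capitals mark the motif letters, in either orientation, and adjoining matches run together in Fasn.
Fasn: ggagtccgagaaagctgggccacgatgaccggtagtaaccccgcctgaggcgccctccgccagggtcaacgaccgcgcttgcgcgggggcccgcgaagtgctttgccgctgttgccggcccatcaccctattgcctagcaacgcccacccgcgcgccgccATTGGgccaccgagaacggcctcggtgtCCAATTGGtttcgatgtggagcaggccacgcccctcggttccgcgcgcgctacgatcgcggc
Mvd: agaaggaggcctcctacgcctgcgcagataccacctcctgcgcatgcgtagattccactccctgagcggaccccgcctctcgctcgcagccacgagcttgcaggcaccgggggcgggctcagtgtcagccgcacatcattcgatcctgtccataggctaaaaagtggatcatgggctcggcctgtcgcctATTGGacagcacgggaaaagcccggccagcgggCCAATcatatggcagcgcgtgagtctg
Hmgcs1: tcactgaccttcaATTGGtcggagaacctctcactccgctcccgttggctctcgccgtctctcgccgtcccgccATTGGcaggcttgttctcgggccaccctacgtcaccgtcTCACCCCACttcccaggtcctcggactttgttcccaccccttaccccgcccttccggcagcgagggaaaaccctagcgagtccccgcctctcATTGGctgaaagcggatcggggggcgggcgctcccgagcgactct

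All 19 fatty acid targets of SREBP were tested. In Has2_TG 9 of them were downregulated and 0 upregulated, against 3.75% and 6.25% of all genes, and 18 had a negative log2 difference (median -0.68). Acly, which makes cytosolic acetyl-CoA from citrate, had the largest difference of the list. Acly FPKM was 425, 285, 1272 and 565 in Has2_WT and 181, 138, 159 and 129 in Has2_TG. Has2_WT3 was the highest library by far and the transgenic libraries were close together below all controls. The difference on the log2 scale was -1.85 with an SE of 0.39 (limma adjusted p = 0.0906). Leaving out 1 library at a time gave -2.16 to -1.44, with -1.44 without Has2_WT3. Acss2, which makes acetyl-CoA from acetate, had 45.9, 35.6, 126 and 62.5 FPKM in Has2_WT and 24.5, 22.8, 26.7 and 27.2 in Has2_TG, again without overlap (log2 fold change -1.25, SE 0.33, limma adjusted p = 0.184).

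The 2 enzymes that turn acetyl-CoA into palmitate fell as well. For Acaca, the carboxylase that makes malonyl-CoA, FPKM was 122, 84.3, 223 and 138 in Has2_WT and 78.1, 74.8, 57.6 and 61.8 in Has2_TG. For Fasn, fatty acid synthase, it was 1708, 1253, 3490.3 and 1883 and 981, 956, 789 and 707. Both sets of groups stood apart, with log2 fold changes of -0.98 (SE 0.27) and -1.19 (SE 0.32). Elovl6, which lengthens palmitate, had 124, 57.6, 199 and 96.2 FPKM in Has2_WT and 60.3, 34.9, 23.2 and 34.2 in Has2_TG. Here Has2_TG1 overlapped with Has2_WT2, and the log2 fold change was -1.59 (SE 0.38). Me1, malic enzyme and a source of NADPH, changed by -1.2 (SE 0.40), Acacb, the second acetyl-CoA carboxylase, by -0.88 (SE 0.31), Gpam, the acyltransferase that starts glycerolipid synthesis, by -0.79 (SE 0.24), and Lpin1, a phosphatidate phosphatase, by -0.69 (SE 0.22). Scd1, the delta-9 desaturase and the most abundant member, was not called: FPKM was 9465, 5873, 9027 and 10827 in Has2_WT and 6148, 6536, 4144 and 5786 in Has2_TG, with Has2_WT2 inside the transgenic range (log2 difference -0.62, SE 0.35). Srebf1 itself was not called either, at 85.3, 123, 188 and 126 FPKM in Has2_WT and 130.4, 108, 85.6 and 97.8 in Has2_TG (log2 difference -0.27, SE 0.24). The other members not called were Scd2, Fads1, Fads2, Elovl5, Pnpla3, Thrsp, Mid1ip1 and Aacs, with log2 differences from -0.68 for Fads2 to 0.18 for Fads1.

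**Figure D1:**
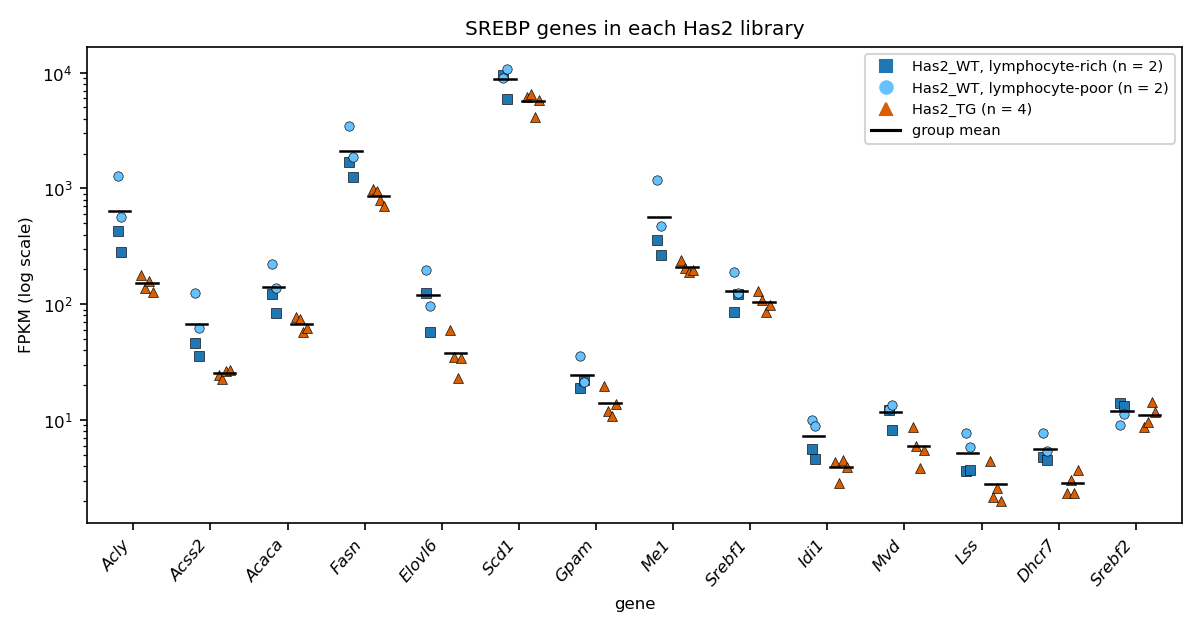
FPKM (log scale) of 14 SREBP genes in each of the 8 Has2 libraries, with squares for Has2_WT1 and Has2_WT2, circles for the lymphocyte-poor Has2_WT3 and Has2_WT4, triangles for Has2_TG and bars for the mean of each group. The triangles lie below every control for Acly, Acss2, Acaca, Fasn, Me1, Idi1 and Dhcr7 and among them for Srebf2, and Has2_WT3 is the top library for Acly at 1272 FPKM.

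More members were downregulated when only the lymphocyte-poor controls were used. Against Has2_WT3 and Has2_WT4, 17 of the 19 fatty acid targets were downregulated and 0 upregulated, where 3.64% and 5.96% of the 12323 genes then tested were called, and the median log2 difference was -1.01. All 9 earlier calls remained. The 8 added were Srebf1 (-0.56), Scd1 (-0.83), Scd2 (-1.01), Fads2 (-1.03), Pnpla3 (-0.58), Mid1ip1 (-0.52), Aacs (-0.87) and Thrsp (-1.04), the last a nuclear protein of lipogenic tissues. Thrsp FPKM was 834, 821, 1833 and 1467 in Has2_WT and 826, 777, 770.4 and 825 in Has2_TG. For Thrsp the lymphocyte-rich controls thus sat at the transgenic level and the lymphocyte-poor controls above it. Not all 8 followed this: Scd1 was higher in Has2_WT1 than in Has2_WT3 and in every Has2_TG library. This comparison has 2 controls and uses libraries of the first one, so it adds no independent samples, and Has2_WT3, the highest control for Acly, Acss2, Acaca, Fasn and Elovl6, carries more weight in it. When the B cell score of each library entered the fit of all 8 as a covariate, 16 members were downregulated. In bulk tissue, fewer cells of a type and less RNA per cell cannot be told apart. The markers that all adipocytes share showed no call in either comparison, with a median log2 difference of 0.03 against all controls and -0.21 against the lymphocyte-poor ones. Against the latter all 7 had a negative log2 difference.

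Fewer members of the cholesterol branch were called. Of its 27 members, 25 were tested, 5 were downregulated and 1 was upregulated, with a median log2 difference of -0.28. These shares were 20% and 4%, against 3.75% and 6.25% of all genes. Dhcr7, which carries out the last step of cholesterol synthesis, had 4.81, 4.48, 7.78 and 5.37 FPKM in Has2_WT and 2.33, 3.07, 2.33 and 3.67 in Has2_TG. Idi1, isopentenyl diphosphate isomerase, had 5.57, 4.58, 10.1 and 8.87 and 4.35, 2.87, 4.56 and 3.96. Neither gene's groups overlapped, though the gap for Idi1 was only from 4.58 to 4.56 FPKM, and the log2 fold changes were -0.95 (SE 0.24) and -0.82 (SE 0.28). Mvd, which closes the mevalonate pathway, changed by -0.97 (SE 0.26), Lss, lanosterol synthase, by -0.88 (SE 0.32) and Rdh11, a retinol dehydrogenase, by -0.75 (SE 0.27). Tmem97, the sigma-2 receptor, was the member upregulated, at 1.04 (SE 0.46). Sqle, squalene epoxidase, had 4.90, 3.98, 6.31 and 8.46 FPKM in Has2_WT and 3.37, 2.87, 6.2 and 3.87 in Has2_TG. Srebf2 had 14.0, 13.2, 9.05 and 11.3 and 8.71, 9.55, 14.3 and 11.8. Both overlapped between groups and were not called, with log2 differences of -0.53 (SE 0.30) and -0.11 (SE 0.21).

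Against the lymphocyte-poor controls 10 of the 25 cholesterol targets were downregulated and 0 upregulated (median -0.51), where 3.64% and 5.96% of all genes were. All 5 earlier calls remained, Tmem97 did not, and Sqle (-0.89), Nsdhl (-0.91), Pmvk (-0.81), Acat2 (-0.70) and Cyp51 (-0.70) were added. The count of 5 against all controls was 3 without Has2_WT3 and 3 without Has2_WT4. Srebf2 stayed uncalled, with a log2 difference of 0.11. Among the 15 sterol regulators and targets of LXR, the nuclear receptor for oxysterols, 0 were called against all controls (median -0.04). Of these Mlxipl had 36.4, 32.3, 74.4 and 58.0 FPKM in Has2_WT and 41.2, 32.8, 35.0 and 32.7 in Has2_TG, and it was downregulated against the lymphocyte-poor controls (-0.90, SE 0.18).

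**Figure D2:**
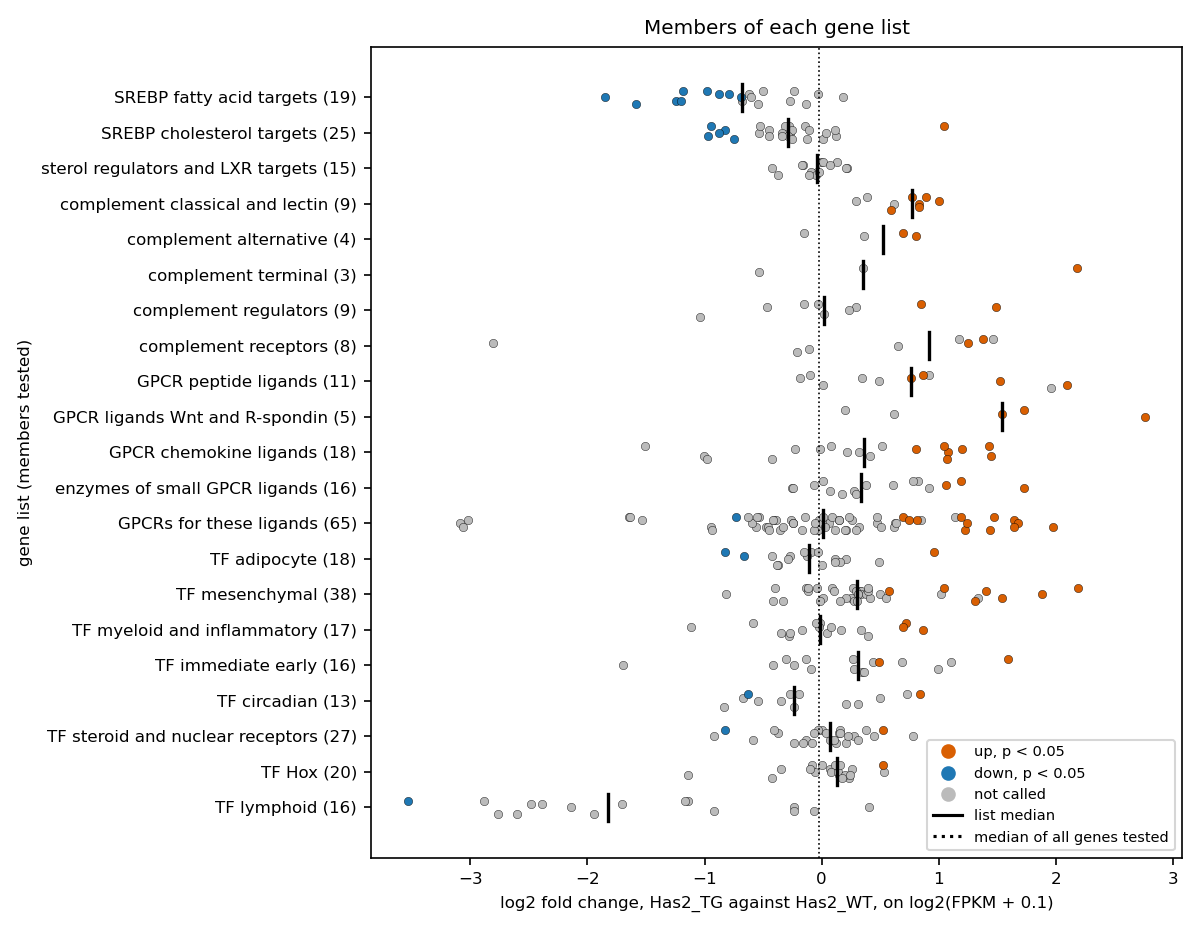
Log2 fold change of every tested member of 21 gene lists, Has2_TG against Has2_WT, with orange points for members upregulated and blue for members downregulated at an unadjusted p under 0.05, grey for the rest, a bar for the list median and a dotted line for the median of all 12606 genes (-0.03). The fatty acid targets spread to the left with a median of -0.68, the complement and ligand lists hold no blue point, and the lymphoid transcription factors have a median of -1.82 with 1 call.

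Complement genes were higher in Has2_TG where they were called. Complement is a cascade of blood and tissue proteins that tags and lyses targets and draws in immune cells. It starts through C1q (classical), lectins or a slow turnover of C3 (alternative), and adipose tissue is a main source of adipsin, the alternative-pathway protease encoded by Cfd. Of 50 listed complement genes 33 were tested, 13 were upregulated and 0 downregulated (median log2 difference 0.59). The upregulated share was 39.4%, against 6.25% of all genes tested, of which 3.75% were downregulated. In the classical and lectin list, 9 of 19 members were tested and 6 were upregulated. C1qb, a chain of the recognition molecule C1q, had 75.3, 70, 57.0 and 104 FPKM in Has2_WT and 155, 182, 142 and 126 in Has2_TG, without overlap (log2 fold change 1.0, SE 0.20, limma adjusted p = 0.0841). The other chains, C1qc at 0.83 (SE 0.22) and C1qa at 0.77 (SE 0.25), were upregulated with it. C1qa FPKM overlapped between the groups, at 94.9, 96.1, 75.3 and 152 in Has2_WT and 165, 249, 156 and 138 in Has2_TG. The proteases that C1q activates were also upregulated, C1ra by 0.83 (SE 0.20) and C1s1 by 0.59 (SE 0.20), as was Fcna, a lectin-pathway ficolin, by 0.89 (SE 0.36). C4b, C2 and Colec12 were not called. C4b shares most of its sequence with C4a, so its values (155, 289.6, 292 and 241 FPKM in Has2_WT, 258, 218, 397 and 317 in Has2_TG) are uncertain.

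Of the 4 alternative-pathway genes, C3 and Cfp were upregulated. C3, the protein on which all routes converge, had 236, 178, 302 and 227 FPKM in Has2_WT and 381, 311, 416 and 402 in Has2_TG. Cfp, properdin, which stabilises the alternative convertase, had 30.1, 31.6, 22.8 and 33.3 and 47.8, 55.4, 59.5 and 43.3. Neither overlapped between groups, and the log2 fold changes were 0.69 (SE 0.19) and 0.81 (SE 0.17). Cfd, the most abundant complement gene, was not called. Its FPKM of 5221, 12119, 18645 and 8985 in Has2_WT spanned the 13196, 17652, 9761 and 12603 of Has2_TG, so a change was not detectable against this spread (log2 difference 0.36, SE 0.48). Cfb was not called (-0.15, SE 0.44).

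The largest rise among the complement genes was that of C7, which anchors the membrane attack complex. C7 FPKM was 14.9, 10.7, 8.76 and 28.9 in Has2_WT and 45.4, 33.8, 103 and 110.1 in Has2_TG, with Has2_TG3 and Has2_TG4 well above Has2_TG1 and Has2_TG2 and all 4 above the controls (log2 fold change 2.18, SE 0.46, limma adjusted p = 0.0906). Its partners C6 and C8g were not called, and the other terminal genes did not reach the minimum of reads. Among 9 tested regulators 2 were upregulated (22.2%, against 6.25% of all genes), among them Serping1, the C1 inhibitor. Serping1 had 79.9, 63.9, 43.9 and 115 FPKM in Has2_WT and 149, 172, 232 and 267 in Has2_TG (log2 fold change 1.49, SE 0.30). Of 8 receptors, the anaphylatoxin receptors C5ar1 (1.25, SE 0.29) and C3ar1 (1.38, SE 0.37) were upregulated, a share of 25%.

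Against the lymphocyte-poor controls 10 of these 13 calls remained and 3 were added. C1qa (0.69, SE 0.33), C1s1 (0.57, SE 0.27) and Fcna (0.80, SE 0.45) were no longer called, and Cd55 (0.69), Vsig4 (1.94) and Itgax (1.12) were. Clu, a fluid-phase regulator, was high in the lymphocyte-rich controls alone (78.2, 59.6, 15.8 and 15.8 FPKM in Has2_WT, 12.2, 19.0, 16.8 and 16.7 in Has2_TG), so its log2 difference went from -1.04 to 0.02. Cr2, the B cell complement receptor, had 8.61, 4.56, 0.0653 and 0.0194 and 0, 0.111, 0 and 0.0590 FPKM and followed the B cell markers (log2 difference -2.80, SE 1.34, not called). Marker genes of 2 cell types rose beside the complement genes. Of 8 macrophage markers 5 were upregulated, Cd14, Cd163, Adgre1, Csf1r and Mrc1, a share of 62.5% against 6.25% of all genes. The macrophage list summed to 196 to 397 FPKM in Has2_WT and 440.4 to 508 in Has2_TG (exact permutation p = 0.0286, the smallest the design allows, and 0.181 adjusted over 19 marker lists). Of the 5 macrophage calls 2 remained against the lymphocyte-poor controls. In the full groups 1 of the 8 markers had every Has2_TG library above every control, as did 4.08% of all genes. Leaving out any 1 Has2_TG library raised the exact permutation p of the macrophage sum to between 0.0571 and 0.0857. All 6 general fibroblast markers were upregulated, against 6.25% of all genes, and 5 of these calls remained against the lymphocyte-poor controls. Their list summed to 218 to 427 FPKM in Has2_WT and 608 to 1007 in Has2_TG. The exact permutation p was 0.0286 (0.181 adjusted over 19 marker lists), and again 0.0286 when any 1 library was left out. In each case that is the smallest p possible. No macrophage or fibroblast marker was at 0 in all libraries. Their part in the complement result was not tested.

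**Figure D3:**
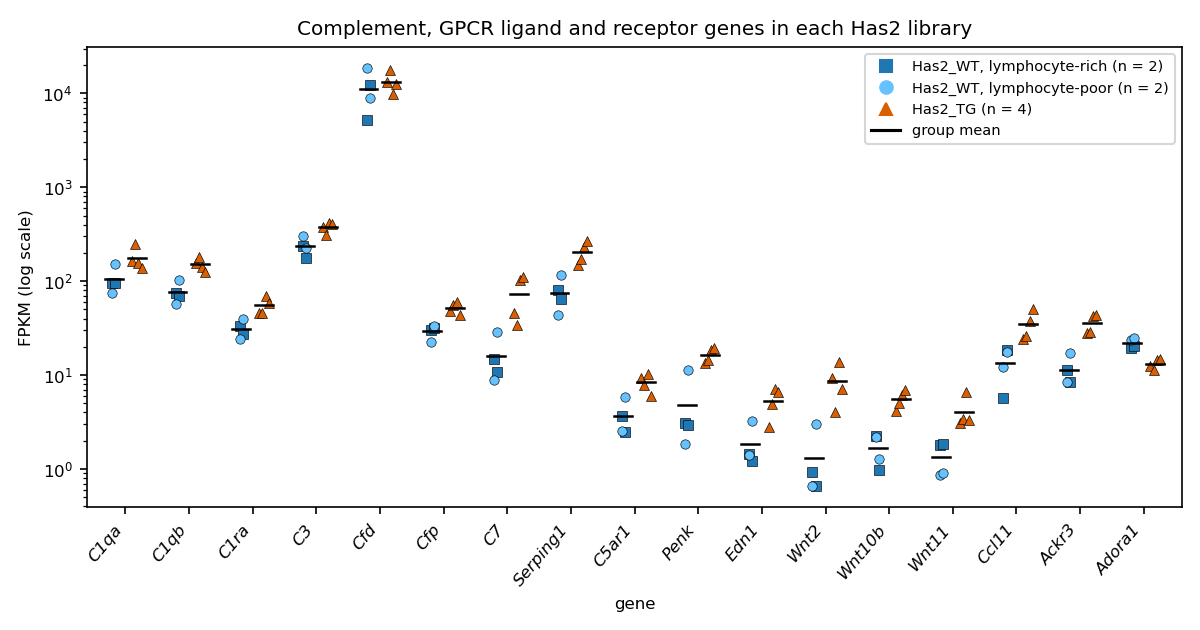
FPKM (log scale) of 17 complement, GPCR ligand and receptor genes in the 8 Has2 libraries, with symbols for lymphocyte-rich controls (squares), lymphocyte-poor controls (circles) and Has2_TG (triangles) and bars for group means. C7, Wnt2, Wnt10b, Penk and Ackr3 separate fully, Cfd does not, and the circle nearest to the triangles is Has2_WT4 for C1qb, C7, Serping1, Penk and Wnt2.

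Ligands of G protein-coupled receptors (GPCRs), the largest class of membrane receptors, were read as peptides, Wnt proteins and chemokines. Of 120 table entries for these ligands, 34 were tested. Of those, 14 were upregulated (41.2%, against 6.25% of all genes) and 0 downregulated, with a median log2 difference of 0.57. The other 86 had too few reads. Most peptide ligands were in that group, with 11 of 57 tested and 4 upregulated. Penk, the precursor of the enkephalin opioids, had 3.08, 2.95, 1.84 and 11.2 FPKM in Has2_WT and 13.4, 14.4, 18.5 and 19.5 in Has2_TG. Has2_WT4 was far above the other controls but below every transgenic library, for a log2 fold change of 2.10 (SE 0.46, limma adjusted p = 0.104). Edn1, endothelin-1, a vasoconstrictor of endothelial origin, had 1.46, 1.21, 1.40 and 3.23 and 2.82, 4.87, 7.14 and 6.60, with Has2_TG1 below Has2_WT4 (log2 fold change 1.53, SE 0.38). Agt, the precursor of angiotensin, changed by 0.86 (SE 0.29) and Anxa1, which acts on formyl peptide receptors, by 0.76 (SE 0.24). Rarres2, chemerin, and Psap, prosaposin, were not called (0.35 and -0.10). Nmb, neuromedin B, had a log2 difference of 1.96 with an SE of 1.06 and was not called either. Penk and Edn1 remained against the lymphocyte-poor controls (1.80 and 1.2), and Agt (0.56, SE 0.33) and Anxa1 (0.58, SE 0.30) did not.

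Wnt proteins signal through the Frizzled receptors and several of them hold back fat cell formation. Of 23 Wnt and R-spondin genes 5 were tested and 3 were upregulated (60%, against 6.25% of all genes). Wnt2 FPKM was 0.928, 0.661, 0.653 and 3.02 in Has2_WT and 9.32, 4.03, 13.6 and 7.17 in Has2_TG, Wnt10b FPKM was 2.26, 0.978, 2.20 and 1.26 and 4.15, 5.01, 6.16 and 6.88, and Wnt11 FPKM was 1.79, 1.83, 0.869 and 0.899 and 3.07, 3.39, 6.55 and 3.32. None of the 3 overlapped between groups, where 4.08% of all genes had every Has2_TG library above every control. Their log2 fold changes were 2.76 (SE 0.51), 1.72 (SE 0.30) and 1.54 (SE 0.35), and all remained against the lymphocyte-poor controls at 2.37, 1.65 and 2.02. The other tested members, Wnt5a (0.20) and Wnt9a (0.62), were not called, and no R-spondin passed the minimum of reads. Wnt2 is also in the list of interstitial progenitor markers. Of the 7 in that list 6 were upregulated (Dpp4, Pi16, Sema3c, Anxa3, Wnt2 and Dact2), a share of 85.7% against 6.25% of all genes. That list summed to 55.3 to 131 FPKM in Has2_WT and 202 to 340.2 in Has2_TG (exact permutation p = 0.0286, 0.181 adjusted over 19 marker lists), none of its markers was at 0 throughout, and its part in the ligand values was not tested.

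Chemokines draw leukocytes through their own GPCRs. Of 18 tested, 7 were upregulated and 0 downregulated (median 0.37): Ccl9 (1.05, SE 0.23) and Ccl6 (1.08, SE 0.24), both ligands of Ccr1, the eotaxins Ccl11 (1.43, SE 0.38) and Ccl24 (1.2, SE 0.40), the monocyte attractants Ccl7 (1.45, SE 0.41) and Ccl8 (1.07, SE 0.29), and platelet factor Pf4 (0.81, SE 0.26). The upregulated share of the chemokines was 38.9%, against 6.25% of all genes. Of the 7, all but Ccl24 remained against the lymphocyte-poor controls. Ccl11 FPKM, for example, was 5.70, 18.4, 12.1 and 17.4 in Has2_WT and 24.2, 25.8, 38.0 and 50.6 in Has2_TG, a full separation. Among 16 tested enzymes that make small GPCR ligands 3 were upregulated (18.8%, against 6.25% of all genes) and all 3 remained. They were Ptgis, prostacyclin synthase (1.34, 2.21, 2.0 and 2.49 FPKM in Has2_WT, 3.15, 6.50, 12.9 and 7.66 in Has2_TG, log2 fold change 1.72, SE 0.39), Nt5e, the ectonucleotidase CD73 that yields adenosine (1.19, SE 0.30), and Pla2g4a, which frees arachidonic acid (1.06, SE 0.41).

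Of the receptors for these ligands 65 of 123 were tested, 12 were upregulated and 1 was downregulated. These shares were 18.5% and 1.54%, against 6.25% and 3.75% of all genes, and the median log2 difference was 0.02. Ackr3, a scavenger of Cxcl12, had the smallest p: FPKM was 11.4, 8.34, 8.52 and 17.3 in Has2_WT and 28.4, 29.1, 42.2 and 43.1 in Has2_TG (log2 fold change 1.68, SE 0.26, limma adjusted p = 0.054). Adra1b, an alpha-1 adrenergic receptor, followed with 1.65 (SE 0.34), then Gpr1, a chemerin receptor, with 1.98 (SE 0.44), Ccr1, the receptor for Ccl6 and Ccl9, with 1.23 (SE 0.29) and Lpar1, a lysophosphatidic acid receptor, with 1.44 (SE 0.36). The other 7 were Ackr1, Ackr2, Fzd2, Lpar4, Ccr2, S1pr2 and Ednrb, from 0.69 for Ccr2 to 1.64 for Ackr2. The member downregulated was Adora1, the adenosine A1 receptor, known for restraining lipolysis in adipocytes. Adora1 FPKM was 19.3, 20.4, 23.8 and 24.7 in Has2_WT and 12.5, 11.4, 14.5 and 14.7 in Has2_TG, with a wide gap and little spread (log2 fold change -0.73, SE 0.15, limma adjusted p = 0.0841). Against the lymphocyte-poor controls 8 of the 12 upward calls and Adora1 (-0.87) remained, and Oxtr (-1.87), Pth1r (-1.08) and Ptger3 (-0.85), the receptors for oxytocin, parathyroid hormone and prostaglandin E2, were downregulated.

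Transcription factors were taken as the 1469 genes that the deposited table annotates with a factor family. Of these 847 were tested, 40 were upregulated and 15 downregulated. These shares, 4.72% and 1.77%, were below the 6.25% and 3.75% of all genes, and the median log2 difference was -0.01. Osr1 and Klf4 were the 2 factors that also passed the adjusted threshold. Osr1, an odd-skipped zinc finger protein of mesenchymal progenitors, had 3.45, 4.03, 2.65 and 4.44 FPKM in Has2_WT and 13.5, 11.0, 18.6 and 11.9 in Has2_TG. Klf4, a Krüppel-like factor active in connective tissue and myeloid cells, had 10.5, 9.05, 11.1 and 12.7 and 22.9, 27.0, 35.3 and 30.7. In both the lowest transgenic library was far above the highest control, and the log2 fold changes were 1.88 (SE 0.22, limma adjusted p = 0.0384) and 1.40 (SE 0.17, limma adjusted p = 0.0384).

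Next by p came Prrx1, a homeobox factor of limb and stromal mesenchyme, with 4.58, 3.06, 3.72 and 6.67 FPKM in Has2_WT and 11.0, 8.32, 15.4 and 9.98 in Has2_TG (1.31, SE 0.27). Its groups separated fully. Jdp2 (0.80, SE 0.18) and Fos (1.59, SE 0.37) belong to the AP-1 dimers, Nfil3 (0.84, SE 0.21) is a circadian repressor, and E2f5 (0.65, SE 0.19) is an E2F repressor. Fos FPKM was 2.34, 1.05, 1.03 and 0.957 in Has2_WT and 5.94, 4.12, 2.25 and 4.53 in Has2_TG, with Has2_TG3 below Has2_WT1. Osr2, the relative of Osr1, had 1.29, 0.887, 1.71 and 2.04 and 1.74, 4.01, 6.38 and 7.67 FPKM (1.54, SE 0.45), with overlap through Has2_TG1. Prdm8, of the PRDM zinc finger family, was low, at 0, 0.0709, 0.231 and 0.712 and 1.58, 0.596, 1.71 and 2.73 FPKM (2.59, SE 0.69). Its log2 fold change was 1.05 to 4.54 over alternative settings. By family, 9 of 38 tested bZIP genes and 8 of 60 homeobox genes were upregulated and 0 downregulated, 11 of 365 C2H2 zinc finger genes were upregulated and 4 downregulated, and 0 of 45 bHLH genes were called. Over all genes tested, 6.25% were upregulated and 3.75% downregulated.

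Of 38 tested mesenchymal factors 7 were upregulated and 0 downregulated: Osr1, Klf4, Prrx1, Osr2, Creb3l1 (1.04, SE 0.31), Prrx2 (2.19, SE 0.71) and Tbx15 (0.57, SE 0.21). Prrx2 was low, at 0 FPKM in Has2_WT4, and its log2 fold change was 1.04 to 3.07 over alternative settings. The upregulated share of the mesenchymal factors was 18.4%, against 6.25% of all genes. The median was 0.31, and the fibroblast and progenitor markers given above rose in the same libraries, a part that was not tested. The master factors of the fat cell were not called. Pparg FPKM was 39.2, 87.7, 76.1 and 51.5 in Has2_WT and 97.5, 51.7, 44.2 and 61.5 in Has2_TG, and Cebpa FPKM was 388, 534, 759.6 and 515 and 505, 546, 512 and 443. Both overlapped throughout, with log2 differences of 0.01 (SE 0.30) and -0.09 (SE 0.22). The factor lists were drawn up by role, and Cebpd is in them without a family in the deposited table, so it is not among the 40. Of the 18 adipocyte factors Cebpd, which acts early in adipogenesis, was upregulated (0.96, SE 0.21), and Ppara, the fatty acid receptor of oxidative tissues, and Prdm16, a determinant of beige and brown fat, were downregulated (-0.82, SE 0.28, and -0.66, SE 0.29). Of 7 beige adipocyte markers Ucp1 was downregulated, the list summed to 577 to 1555 FPKM in Has2_WT and 192 to 1077 in Has2_TG, none was at 0 in all libraries, and their part in these 2 falls was not tested. Among 17 myeloid and inflammatory factors 3 were upregulated, among them Maf (0.69) and Irf7 (0.72). Among 13 circadian factors Nfil3 was upregulated and Nr1d1, the heme receptor Rev-erb alpha, downregulated (46.6, 61.5, 121 and 53.2 FPKM in Has2_WT, 39.8, 50.5, 36.6 and 43.9 in Has2_TG, log2 fold change -0.63, SE 0.28). Of 27 steroid and nuclear receptors Ppara was the 1 downregulated (3.70%, against 3.75% of all genes). Of 20 Hox genes Hoxc9 was upregulated (0.52, SE 0.18), a share of 5% against 6.25% of all genes. Neither count stood above the share over all genes. Of 16 immediate early factors Fos and Fosl2 (0.49) were upregulated.

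**Figure D4:**
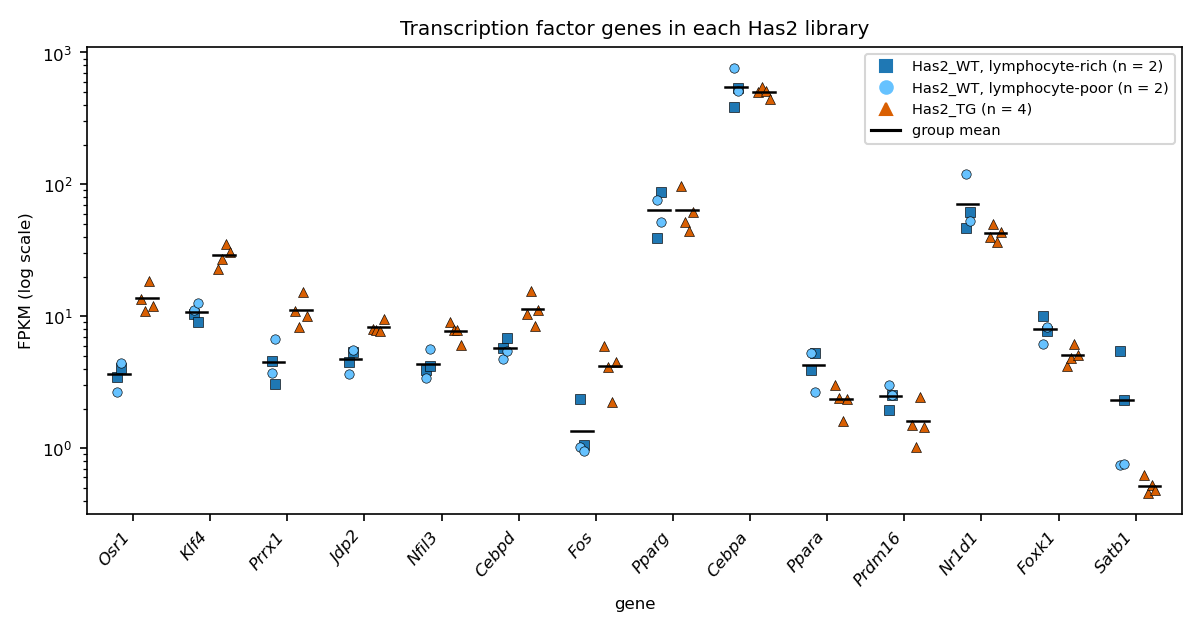
FPKM (log scale) of 14 transcription factor genes in the 8 Has2 libraries, with squares for lymphocyte-rich controls, circles for lymphocyte-poor controls, triangles for Has2_TG and bars for group means. Osr1, Klf4, Prrx1, Jdp2, Nfil3 and Cebpd separate with Has2_TG above, Pparg and Cebpa overlap, and the squares of Satb1 (5.46 and 2.32 FPKM) lie above its circles.

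Among the downregulated factors, some followed the lymphocyte-rich controls. Spib, a B cell factor, had 21.7, 19.0, 0.308 and 0.347 FPKM in Has2_WT and 0, 0.252, 1.12 and 0 in Has2_TG. Satb1, a chromatin organiser of lymphocytes, had 5.46, 2.32, 0.743 and 0.754 and 0.621, 0.456, 0.525 and 0.483, and Foxm1, a cell cycle factor, had 1.33, 1.07, 0.399 and 0.819 and 0.352, 0.335, 0.557 and 0.216. For the first 2 the high values were those of Has2_WT1 and Has2_WT2, the controls rich in B cell markers. The 16 tested lymphoid factors had a median log2 difference of -1.82 with 1 call, and the 6 that still had enough reads among the 4 Has2_TG libraries and the lymphocyte-poor controls had a median of 0.31, a description only because these controls were chosen by B cell markers. The other named factors with lower levels were Foxk1 (-0.65, SE 0.20), Hbp1 (-0.54, SE 0.19), Hsf4 (-1.31, SE 0.52), Setdb2 (-1.02, SE 0.40), Zfp658 (-1.16, SE 0.45) and Zfp688 (-0.53, SE 0.21). Against the lymphocyte-poor controls 1 of the 15 downward calls remained, Nr1d1 (-0.92, SE 0.31), 2 were not tested and 12 were tested without a call. The median log2 difference of these 12 was -0.67 against all and -0.53 against the lymphocyte-poor controls, and it was as large or larger in 3 of them. Hsf4 (-1.26), Hbp1 (-0.56), Setdb2 (-0.88) and Prdm16 (-0.81) had values near those against all controls, and Satb1 (-0.46) had not. Of the 40 upward calls 24 remained. Osr1 (1.94) and Klf4 (1.26) were among these, and Osr2 (1.17) and Tbx15 (0.50) were not. Over all genes 61.2% of the upward and 38.1% of the downward calls remained. The 15 downward calls became 8 without Has2_WT1, 7 without Has2_WT2, 9 without Has2_TG4, 32 without Has2_WT3 and 29 without Has2_WT4. Single libraries thus decided this count in both directions.

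Across all genes, the lymphocyte-poor comparison tested 12323 genes and called 734 upregulated (5.96%) and 448 downregulated (3.64%), with 0 past the adjusted threshold by limma. Of the 788 genes upregulated against all controls 482 remained, and of the 473 downregulated 180 remained. Another 63 downregulated genes were no longer tested for lack of reads, 230 were tested and not called, and none was called in the opposite direction. All 13 genes past the adjusted threshold in the full comparison remained, with log2 fold changes from 1.26 to 2.34. The 2 comparisons share their transgenic libraries and 2 controls. The 230 had a median log2 difference of -0.65 against all and -0.49 against the lymphocyte-poor controls, and in 65 of them it was as large or larger with the fewer controls. Among these were Plin5, a lipid droplet protein (-1.14 and -1.23), Pank1, a pantothenate kinase (-1.31 and -1.43), and Hadha, an enzyme of fatty acid oxidation (-0.64 and -0.74). The calls that did not remain also held B cell and lymphocyte genes, which the choice of controls by B cell markers had to remove, such as Cd79a (93.2, 93.7, 0.849 and 0.755 FPKM in Has2_WT, 0.545, 1.07, 0.990 and 0.263 in Has2_TG), a part of the B cell receptor, and Ltb (47.0, 63.7, 2.60 and 2.21 and 0.576, 2.30, 0 and 1.17), a lymphoid cytokine. These 5 genes were named after their values were seen. A further 252 upregulated and 268 downregulated genes were called only against the lymphocyte-poor controls, without a test of the difference between the 2 comparisons. Without Has2_TG4 the count of upward calls that remained fell from 482 to 376 and that of downward calls from 180 to 109. Leaving out Has2_WT3 or Has2_WT4 leaves 1 control in this comparison, so counts for that are not given.

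In 453 genes, 363 upregulated and 90 downregulated, the calls agreed and the 4 transgenic libraries did not overlap with the 4 controls. The largest folds upward were those of Wnt2, Ccdc42, Flrt2, Cpz, Il1r2, Sfrp2, Tmem100, Smpd3, Dact2 and Trem2. Cpz, a carboxypeptidase that acts on Wnt proteins, had 1.24, 0.945, 2.41 and 0.746 FPKM in Has2_WT and 6.48, 5.45, 11.4 and 6.52 in Has2_TG, and its log2 fold change was 2.47 (SE 0.36) against all and 2.32 (SE 0.47) against the lymphocyte-poor controls. Smpd3, neutral sphingomyelinase, had 2.82, 1.71, 1.84 and 6.50 and 9.82, 11.7, 20.9 and 17.2 FPKM (2.33 and 2.01). Trem2, a lipid receptor of macrophages, was low throughout at 0.616, 0.301, 0.345 and 0 and 1.99, 1.25, 1.41 and 1.58 FPKM (2.28 and 2.96), and so was Ccdc42 (2.52 and 2.06). Over alternative settings the log2 fold change was 0.97 to 3.43 for Trem2 and 1.29 to 3.84 for Ccdc42. The other 5 kept values from 1.90 for Dact2 to 2.34 for Flrt2 against the lymphocyte-poor controls. Sfrp2 and Dact2 act on Wnt signaling as well, Sfrp2 by binding Wnt proteins outside the cell and Dact2 inside it.

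The largest falls were those of Acot11, Sorcs2, Ttc25, Hvcn1, Acly, Ptp4a1, Hephl1, Slc2a5, Sdr39u1 and Sorl1. Acot11, a thioesterase that releases fatty acids from CoA in thermogenic fat, had 11.9, 8.28, 23 and 7.25 FPKM in Has2_WT and 5.41, 2.64, 0.318 and 1.33 in Has2_TG (-2.72, SE 0.70, and -2.91, SE 0.94). Slc2a5, the fructose transporter, had 13.2, 9.22, 34.8 and 16.2 and 8.57, 5.06, 3.39 and 3.26 (-1.77 and -2.32), with Has2_WT3 on top as for Acly. Sorl1, a sorting receptor of the same family as Sorcs2, had 10.4, 7.10, 18.1 and 10.7 and 2.89, 4.03, 3.45 and 3.51 FPKM, and its transgenic libraries stayed within a narrow band (-1.64, SE 0.27, and -1.99, SE 0.27). Sorcs2 changed by -2.22 and -2.62. Hvcn1, a proton channel best known from lymphocytes and phagocytes, changed by -1.88 against all and -1.37 against the lymphocyte-poor controls. Ptp4a1 is listed as 2 entries that share a start on chromosome 1, and the fall is that of 1 of them (-1.85). The other also passed the minimum of reads, and its reads overlapped between the groups, at 27 to 106 in Has2_WT and 45 to 78 in Has2_TG. How reads were split between the entries is uncertain.

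**Figure D5:**
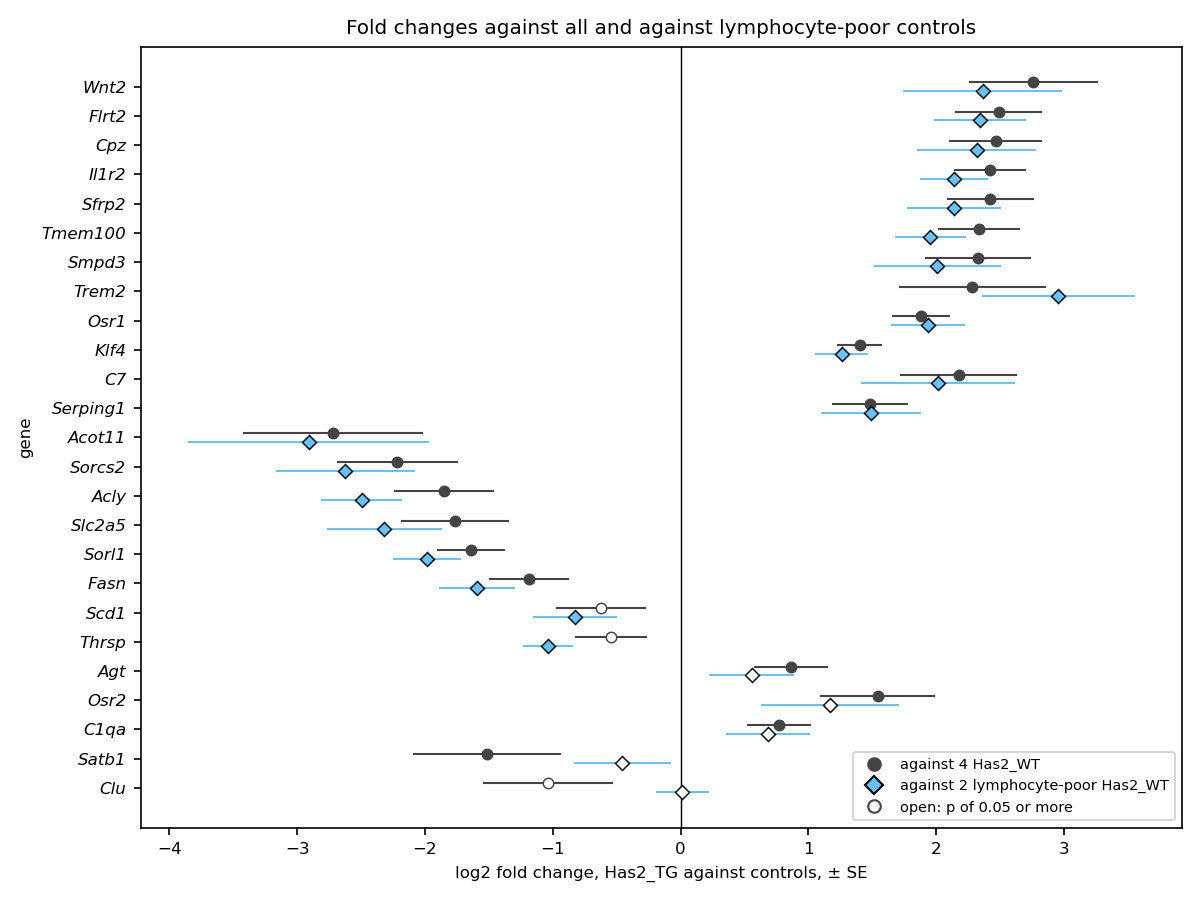
Log2 fold change with its SE (horizontal bars) of 25 genes in Has2_TG against all 4 Has2_WT libraries (dark circles) and against the 2 lymphocyte-poor ones (light diamonds), with open symbols where the unadjusted p was 0.05 or more. Acly moves from -1.85 to -2.50 and Thrsp from uncalled to called, while Agt, Osr2 and C1qa lose their call and Clu goes from -1.04 to 0.02.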

How the data were processed

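Total RNA of iWAT was sequenced in 4 Has2_TG and 4 Has2_WT libraries. Per the labels and methods, the authors made TruSeq libraries, checked reads with FastQC 0.11.9 and MultiQC 1.12, aligned them with STAR 2.7.9a to GRCm38, tested them with DESeq2 without the genes under a mean count of 50, and took p under 0.05. The deposited table holds FPKM per gene for all 16 libraries, which the authors scaled by gene length and a library total. Multiplied by length, 100% of the values above 0 were whole multiples (within 0.01) of the smallest one in each of the 8 libraries, and these multiples were read as reads. The totals behind FPKM were 0.886 to 1.06 times the reads on genes. The recovered reads gave depth, the filter (on average 50 reads or more) and the input of voom. FPKM values were tested as log2(FPKM + 0.1) with limma 3.58.1 in R 4.3.3 (with a variance trend), 4 against 4 libraries without covariates, with Benjamini-Hochberg adjustment over 12606 genes. The lymphocyte-poor comparison set the 4 Has2_TG libraries against the 2 Has2_WT libraries below the largest gap in summed B cell marker FPKM, so the values of lymphocyte genes there follow from that choice and are descriptions only.

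Marker lists were compared by exact 2-sided permutation of summed FPKM over 70 assignments. The gene lists and members were chosen with earlier results of these data known. Named genes were key members of each list, up to 6 called members of each list and 10 called transcription factors in each direction with the smallest p, and the 10 largest folds each way among genes called in both comparisons with separate groups, 101 in all, and a few list members are not reported here. Markers were named where they moved with a result. Alternatives were another pseudocount, other read and FPKM minimums, quantile normalization, voom, all 16 libraries in 1 fit, a replicate block, no variance trend, a B cell covariate and leaving out each library. A minimum of 200 reads and leaving out the muscle-rich libraries were added after seeing the data. On simulated data for 12606 genes with 200 changed, 89% of genes raised and 83% of genes lowered by 2-fold were called, and 5.03% of unchanged genes. The simulation gave every gene the same dispersion and the libraries no differences in cell types. These rates therefore check the fit and are not those of the real comparison. No pair of libraries agreed within sampling noise. Promoter sequences came from RefSeq.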

Additional observations from a re-analysis of the deposited data

Results flagged for a closer look

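In 10 of 202 groups of 4 libraries (2 groups for each named gene) 1 library stood apart by more of the group's range than Dixon's 95% critical value, where chance gives about 1 in 20, or 10.1. The ratios in brackets are the gap to the nearest library divided by the range.

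Has2_WT4 was high for Anxa1 at 97.4 FPKM, against 48.8 to 54.0 in the other controls (0.855), for C3ar1 at 3.70 against 1.37 to 1.61 (0.839) and for Ccl6 at 59.9 against 30.3 to 33.8 (0.838). These 3 are genes upregulated in Has2_TG. Has2_WT1 was high for Fos at 2.34 FPKM against 0.957 to 1.05 (0.901).

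Among the transgenic libraries, Has2_TG4 was low for Ccl9 at 19.5 FPKM against 27.2 to 27.3 (0.989) and high for Jdp2 at 9.58 against 7.68 to 7.96 (0.840). Has2_TG1 was high for Gpr1 at 3.89 FPKM against 2.30 to 2.48 (0.856) and low for Setdb2 at 0.402 against 1.19 to 1.31 (0.912). Has2_TG3 was low for Hsf4 at 0.366 FPKM against 2.02 to 2.41 (0.901) and high for Wnt11 at 6.55 against 3.07 to 3.39 (0.869).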

How the results depend on the processing

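Of the 93 named genes that were called, 56 kept their call under every alternative that tested them and none changed sign. Leaving out 1 library at a time gave 619 to 880 genes upregulated and 329 to 592 downregulated, 9 to 13 fatty acid targets downregulated, 12 to 16 complement genes and 13 to 15 GPCR ligands upregulated, 3 to 7 cholesterol targets and 7 to 32 transcription factors downregulated, 248 to 533 upward and 74 to 246 downward calls kept against the lymphocyte-poor controls. The count past the adjusted threshold was the least stable. It was 0 to 138 upregulated genes over these settings (138 without Has2_WT4, 0 without any of the other 7 libraries) and 0 to 3 downregulated. It was 26 with a pseudocount of 1, 47 with voom, 49 with a mean of at least 200 reads, 1 with the B cell covariate, and 0 with every gene with a read, a mean FPKM of at least 1, quantile normalization, all 16 libraries, the replicate block, no variance trend, without the muscle-rich libraries and with the lymphocyte-poor controls. Downregulated genes past it numbered 4 with voom and 2 with a mean of at least 200 reads. The causes were not tested.

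Testing every gene with a read called 800 genes downregulated and kept 333 of them against the lymphocyte-poor controls. The B cell covariate gave 16 fatty acid targets, 9 cholesterol targets and 7 transcription factors downregulated and 379 downward calls kept. Fitting all 16 libraries gave 8 GPCR ligands upregulated, 29 transcription factors downregulated and 317 upward calls kept, and leaving out the muscle-rich libraries kept 331 downward calls. For that last count the lymphocyte-poor comparison set only Has2_TG3 and Has2_TG4 against Has2_WT3 and Has2_WT4. Same-numbered libraries deviated with correlations of -0.18 to 0.13 over 4 pairs, and 1 of 8 libraries correlated best with its own number, so the numbers were not taken to pair the samples. The replicate block gave 750 upregulated and 403 downregulated genes.

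Some named genes without a call changed sign. Srebf2 was 0.10 with the B cell covariate, 0.11 against the lymphocyte-poor controls and 0.15 without the muscle-rich libraries. Pparg was -0.059, -0.041 and -0.22 under these, and -0.22 to 0.18 over single-library omissions. Cebpa was -0.25 to 0.077 over them, and positive without Has2_WT3. The B cell marker sum differed by -200.1 to -89.4 FPKM over single-library omissions, the macrophage sum by 76.4 to 143.6 (exact permutation p of 0.0571 to 0.0857 without a Has2_TG library) and the adipocyte sum by -788 to 567, with -788 without Has2_WT1, -304 without Has2_TG2 and -27.8 without Has2_TG4. Genes with few reads are read less precisely, and low folds are shrunk by the pseudocount.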

Other observations

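Ucp1, the uncoupling protein of thermogenic fat cells, had 82.6, 215, 275 and 74.4 FPKM in Has2_WT and 206, 36.3, 7.31 and 16.4 in Has2_TG. Has2_TG1 was within the control range and the other transgenic libraries were below it, and the gene was downregulated (log2 fold change -2.16, SE 0.90) but was not called against the lymphocyte-poor controls (-2.21, SE 1.18). The other 6 beige adipocyte markers were not called, among them Cidea (-0.64, SE 0.43), Cox7a1 (-1.2, SE 0.62) and Dio2 (0.55, SE 0.86).

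Single markers of other tissue parts were also called. Myh11, the smooth muscle myosin, was downregulated (-1.0, SE 0.21) and was 1 of 4 tested smooth muscle and pericyte markers. Lyve1, an HA receptor of lymphatic endothelium and tissue macrophages, was upregulated (13.3, 7.11, 5.81 and 19.0 FPKM in Has2_WT, 21.4, 22.1, 17.8 and 12.5 in Has2_TG, log2 fold change 0.82, SE 0.36). The hemoglobin gene Hbb-bs was also upregulated (0.73, SE 0.32). Against the lymphocyte-poor controls Myh11 remained downregulated, and neither Lyve1 nor Hbb-bs was called. None of the 5 endothelial markers was called.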
